A study of Rattus norvegicus with 9 samples.

Results

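The 9 genes described here belong to the fasting response of the liver that is ordered around the transcription factors PPARα and CREB3L3: Ppara, Creb3l3, Ppargc1a, Fgf21, Klb, Angptl4, Pdk4, Vnn1 and Apoa4. They were taken by symbol from a table of read counts for 24496 genes. Each symbol matched 1 row, and 9 of 9 passed the filter on low counts, as did 11924 genes in all. Liver RNA came from 9 individual female Wistar rats, with 1 library per animal. The rats were placed on a western diet at 10 weeks of age and lost their ovaries 6 weeks later. All of them received degarelix, a blocker of the receptor for gonadotropin-releasing hormone, which lowers gonadotropin release, so both groups carried the loss of ovaries and the drug. Osmotic pumps then gave vehicle to 5 rats (Degarelix-only) and follicle-stimulating hormone (FSH) at 6 µg per kg per day to 4 rats (Degarelix+FSH). Food was restricted over 12 days to hold body weight and then offered freely during 7 days. The animals were 19 weeks old at harvest, which followed a 4 h fast. No rat with intact ovaries, without degarelix or in the fed state was among these libraries. The comparison addresses the effect of FSH on the liver after the loss of ovarian function.

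In fasting, fatty acids released by adipose tissue reach the liver and act as ligands of PPARα, a nuclear receptor that pairs with a retinoid X receptor and switches on genes for fatty acid oxidation and ketone production. CREB3L3, also called CREBH, is made in liver and gut as a protein of the endoplasmic reticulum membrane, and proteases of the Golgi release its active part, which acts with PPARα on Fgf21. The coactivator PGC-1α, the product of Ppargc1a, is induced by glucagon through cyclic AMP. The hormone FGF21 acts on cells that carry β-klotho, the product of Klb, together with an FGF receptor.

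Library totals lay between 19295580 and 28672439 counts. Values are given as CPM, which is counts per 1000000 after scaling for library size and composition, and levels are compared only between libraries for the same gene, since the table carries no transcript lengths. The library of FSH replicate 1 stood apart, with 19.4% of its counts from Alb, against 10.5 to 16.7% in the others, and values of the 9 genes that moved by over 1.5 times or changed sign without it are also given without it. The tissue label was met by the 8 hepatocyte markers, whose summed level ranged from 198699 to 245218 CPM with vehicle and from 175821 to 283161 CPM with FSH. In whole liver, a change in the share of a cell type and a change in RNA per cell cannot be told apart. Summed stellate cell markers were at 209 to 275 CPM with vehicle and 166 to 198 CPM with FSH, without overlap. Col3a1 made up most of this sum, at 141 to 193 CPM with vehicle and 101 to 129 CPM with FSH. Of the 6 tested stellate cell genes, 0 had a log2 fold change above 0, where 50.5% of all tested genes did. Summed endothelial markers were at 141 to 195 CPM with vehicle and 177 to 236 CPM with FSH, with 6 of 6 above 0. Summed erythroid markers were at 75.9 to 157 CPM with vehicle and 121 to 490.1 CPM with FSH, with 4 of 4 above 0. Of these stellate, endothelial and erythroid markers, 0 had an edgeR adjusted p under 0.05. The part of these cell types in the results was not tested.

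All 9 genes had a log2 fold change (FSH over vehicle) above 0, where 50.5% of all tested genes did, and that of Klb was 0.01 (−0.00018 in DESeq2). The count was 7 of 9 without FSH replicate 1 or without vehicle replicate 3, where Klb and Apoa4 turned, and 7 to 9 over all fits that left out 1 library. The median over the 9 genes was 0.38, beside 0.002 over all tested genes. None of the 9 genes passed the threshold, an adjusted p of 0.05 in edgeR's quasi-likelihood test, which 0.0335% of all tested genes passed. The smallest adjusted p among them was 0.175. At an unadjusted p under 0.05 there were 4 of 9 (Creb3l3, Fgf21, Pdk4 and Vnn1), against a background of 11.6%. All of these were higher with FSH, which held for 6.42% of all tested genes. The 9 genes were chosen with earlier results of these data known, so these shares are a description and no test. DESeq2 called 2 of 9, Creb3l3 and Fgf21, where it called 1.64% of all genes with an adjusted p, and limma-voom called 0 of 9, against 0.0503% of all genes. In the same 2 genes the CPM ranges of the groups did not overlap, which held for 4.11% of all tested genes.

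**Figure D1:**
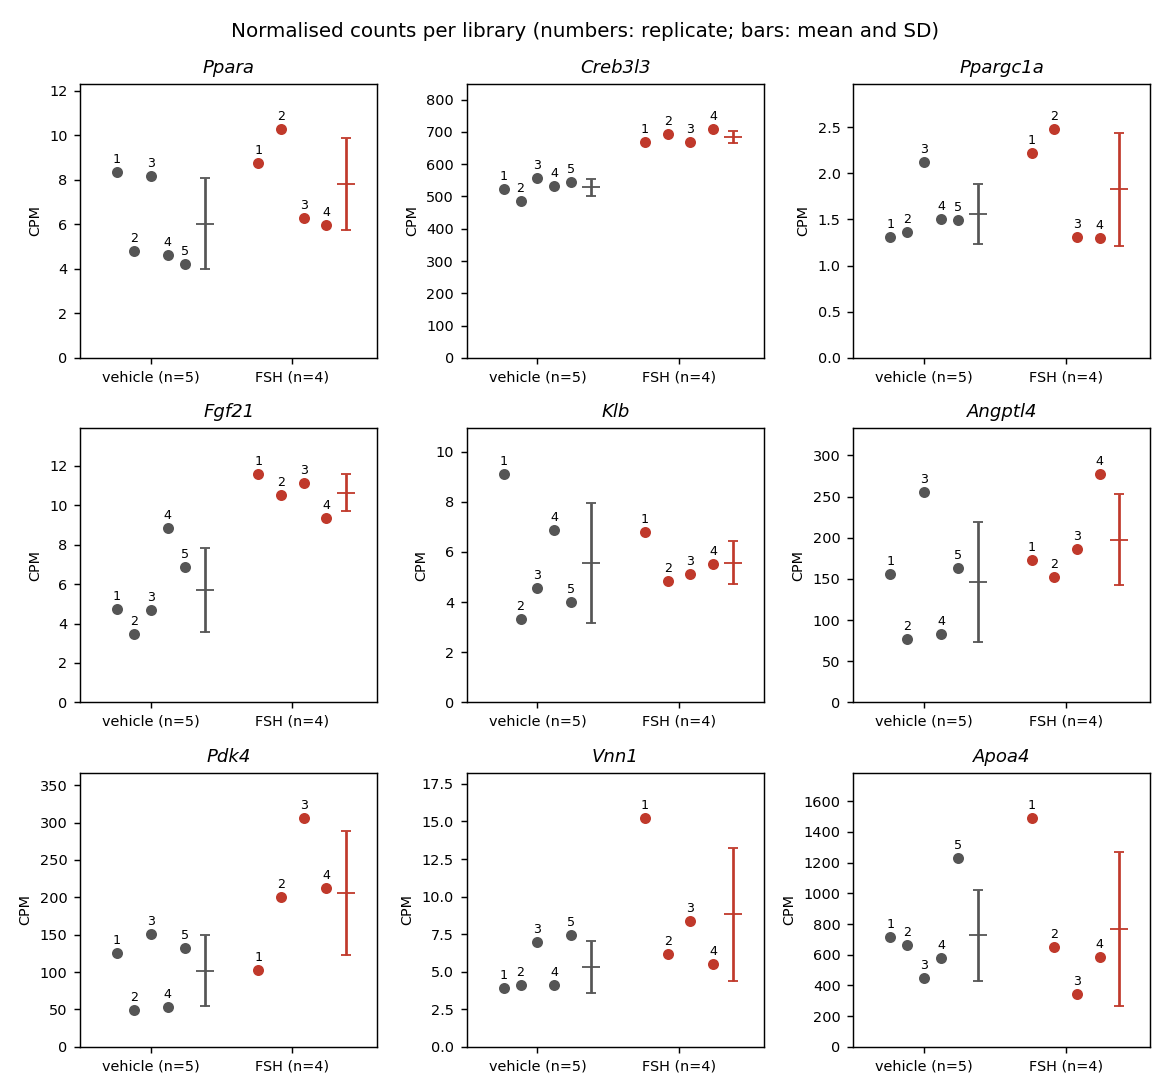
CPM (vertical axes, from 0) of the 9 genes in the 5 vehicle and 4 FSH libraries. Points are single animals labelled with their replicate number, and bars give the mean and SD. The groups are separate for Creb3l3 and Fgf21 and overlap for the other 7 genes.

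Among the transcription factors, Creb3l3 (ENSRNOG00000032202) had the narrowest spread. It stood at 523, 487, 557, 532 and 545 CPM in vehicle replicates 1 to 5 and at 669, 694, 670.0 and 708 CPM in FSH replicates 1 to 4. Every FSH library lay above every vehicle library, and the coefficient of variation was 5.03% with vehicle and 2.79% with FSH. The means were 529 ± 26.6 CPM (SD, n = 5) with vehicle and 685 ± 19.1 CPM (n = 4) with FSH, a log2 fold change of 0.37 (SE 0.07, 95% interval 0.22 to 0.53, edgeR adjusted p = 0.175). DESeq2 gave 0.37 (SE 0.06, adjusted p = 7.56e-07) and limma-voom 0.37 (adjusted p = 0.125). Over the 9 edgeR fits that each left out 1 library the value stayed between 0.34 and 0.39, with adjusted p from 0.117 to 0.311.

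The 250 bases before the RefSeq start site (build GRCr8) are shown for Creb3l3 and Fgf21, the members whose groups did not overlap, and for Ppargc1a, which holds a full cyclic AMP response element. Letters in capitals mark TGACG, the core of that element, TGACGTCA, its full form, and AGGTCA, the single binding site of nuclear receptors, each searched on both strands, so that TGACG also appears as CGTCA.
Creb3l3, chr7:9273070-9273319, plus strand: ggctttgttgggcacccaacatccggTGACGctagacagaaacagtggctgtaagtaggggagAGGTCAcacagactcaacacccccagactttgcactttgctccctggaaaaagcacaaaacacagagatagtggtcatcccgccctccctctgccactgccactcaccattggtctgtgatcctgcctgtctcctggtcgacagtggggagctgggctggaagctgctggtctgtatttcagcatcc
Fgf21, chr1:105221377-105221626, minus strand: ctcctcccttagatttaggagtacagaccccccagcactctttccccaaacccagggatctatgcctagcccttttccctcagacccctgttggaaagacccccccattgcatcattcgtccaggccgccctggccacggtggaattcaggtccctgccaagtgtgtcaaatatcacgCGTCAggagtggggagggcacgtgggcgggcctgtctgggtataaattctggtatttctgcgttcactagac
Ppargc1a, chr14:63634058-63634307, plus strand: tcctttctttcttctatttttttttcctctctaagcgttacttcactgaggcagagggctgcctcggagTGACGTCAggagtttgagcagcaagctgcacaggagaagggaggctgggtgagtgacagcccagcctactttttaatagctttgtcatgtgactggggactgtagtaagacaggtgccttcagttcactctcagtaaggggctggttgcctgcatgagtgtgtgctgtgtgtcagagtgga
Of the 9 genes, 8 had an entry in this table (not Vnn1). TGACG was found in 4 of 8 (Creb3l3, Fgf21, Klb and Ppargc1a), against 18.2% of 33469 promoters of the same length. TGACGTCA, which contains TGACG on each strand, was found in 1 of 8, 181 to 174 bases before the start of Ppargc1a, against 1.59%. AGGTCA was found in 1 of 8, 187 to 182 bases before the start of Creb3l3, against 14.1%. The pair AGGTCANAGGTCA, the exact consensus of the element bound by PPARα with its partner, was in 0 of 8 and in 0.0508% of all. Variants of this string were not searched, and at so low a share 0 of 8 cannot tell whether PPARα sites are present. These matches describe the letters in this window.

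Ppara (ENSRNOG00000021463), the receptor itself, was at 8.33, 4.79, 8.16, 4.62 and 4.20 CPM in vehicle replicates 1 to 5 and at 8.74, 10.3, 6.29 and 5.96 CPM in FSH replicates 1 to 4. The vehicle animals formed a high pair, replicates 1 and 3, and 3 low values, and FSH replicates 3 and 4 lay between them. In edgeR the log2 fold change was 0.38 (SE 0.25, 95% interval −0.18 to 0.93, edgeR adjusted p = 0.607). It was 0.21 without FSH replicate 2. Although this estimate was close to that of Creb3l3, its SE was larger. Ppara was counted with 79 to 253 reads per library, where counting alone gives an SD of 6.29 to 11.3%, and Creb3l3 with 9979 to 17373 reads. The spread of Ppara within the groups, a coefficient of variation of 34.0% with vehicle and 26.3% with FSH, was above that counting error.

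Ppargc1a (ENSRNOG00000004473), the coactivator, was the most thinly counted member, with 25 to 61 reads per library and a counting SD of 12.8 to 20.0%. It was at 1.31, 1.37, 2.12, 1.50 and 1.49 CPM in vehicle replicates 1 to 5 and at 2.22, 2.48, 1.31 and 1.30 CPM in FSH replicates 1 to 4. FSH replicates 1 and 2 were above all vehicle libraries, while FSH replicates 3 and 4 sat at or just below the low end of the vehicle range. Its fitted log2 fold change was 0.22 (SE 0.25, 95% interval −0.32 to 0.77, edgeR adjusted p = 0.774), with values of 0.04 without FSH replicate 2 and 0.11 without FSH replicate 1. Ppara and Ppargc1a had the same order of FSH animals, with replicate 2 highest, then 1, 3 and 4. For Ppargc1a, replicates 2 and 1, and likewise 3 and 4, differed by less than the counting SD.

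Fgf21 (ENSRNOG00000020990), the hormone, was at 4.71, 3.49, 4.66, 8.84 and 6.86 CPM in vehicle replicates 1 to 5 and at 11.6, 10.5, 11.1 and 9.38 CPM in FSH replicates 1 to 4. Every FSH library lay above the highest vehicle library, replicate 4, and the FSH animals lay close together (coefficient of variation 8.98%, against 37.2% with vehicle). The FSH mean was 10.6 ± 0.956 CPM (SD, n = 4) and the vehicle mean 5.71 ± 2.13 CPM (SD, n = 5). FSH over vehicle, this gave a log2 fold change of 0.90 (SE 0.23, 95% interval 0.39 to 1.41), or 1.87-fold with an interval of 1.31 to 2.66, at an edgeR adjusted p of 0.219. DESeq2 called it, at 0.90 (SE 0.24, adjusted p = 0.0222), and limma-voom did not (0.87, adjusted p = 0.200). Leaving out 1 library in edgeR gave values from 0.76 to 1.12 and adjusted p from 0.145 to 0.403.

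Klb (ENSRNOG00000002834), the FGF21 co-receptor, hardly differed in its mean, with 5.57 ± 0.863 CPM in the FSH group (SD, n = 4) and 5.57 ± 2.39 CPM in the vehicle group (SD, n = 5). Single values were 9.11, 3.31, 4.56, 6.87 and 3.99 CPM in vehicle replicates 1 to 5 and 6.79, 4.83, 5.13 and 5.53 CPM in FSH replicates 1 to 4. All FSH values lay inside the vehicle range, with a highest-to-lowest ratio of 1.41 against 2.75 with vehicle. The log2 fold change was 0.01 (SE 0.27, 95% interval −0.60 to 0.61, edgeR adjusted p = 0.996), so that the interval reaches from 0.660-fold to 1.53-fold. Its sign turned on leaving out single animals, from −0.14 without vehicle replicate 2 to 0.25 without vehicle replicate 1, and was −0.10 without FSH replicate 1. The FGF receptors, which bind FGF21 together with β-klotho, had log2 fold changes of −0.07 (Fgfr1, SE 0.14, adjusted p = 0.889), 0.18 (Fgfr2, SE 0.16, adjusted p = 0.710), −0.20 (Fgfr3, SE 0.22, adjusted p = 0.771) and −0.02 (Fgfr4, SE 0.08, adjusted p = 0.934). The value of Fgfr1 was 0.04 without FSH replicate 4 and that of Fgfr4 0.02 without FSH replicate 1, so neither had a stable direction. Fgfr2 was at 0.05 without FSH replicate 1 and Fgfr3 at −0.07 without vehicle replicate 2.

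Pdk4 (ENSRNOG00000009565) encodes a kinase that switches off the pyruvate dehydrogenase complex and so spares glucose when fat is burnt. It had the highest estimate of the 9 genes and a wide spread. Vehicle replicates 1 to 5 were at 126, 48.7, 150.5, 53.0 and 132 CPM, and FSH replicates 1 to 4 at 103, 200.1, 306 and 213 CPM. FSH replicates 2, 3 and 4 exceeded all vehicle libraries, and FSH replicate 1 lay below 3 of the vehicle animals. Its estimate on the log2 scale was 1.01 (SE 0.39, 95% interval 0.16 to 1.87, edgeR adjusted p = 0.369). Without FSH replicate 1 it was 1.23, and without FSH replicate 3 it was 0.75. The groups no longer overlapped without FSH replicate 1, where the share of all tested genes without overlap was not counted.

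Angptl4 (ENSRNOG00000007545), a secreted inhibitor of lipoprotein lipase, stood at 156, 76.4, 256, 82.9 and 163 CPM in vehicle replicates 1 to 5. In FSH replicates 1 to 4 it stood at 173, 153, 186 and 278 CPM. The groups overlapped broadly, and the vehicle animals split as for Pdk4, with replicates 2 and 4 low. For Angptl4 the fit gave a log2 fold change of 0.43 (SE 0.33, 95% interval −0.31 to 1.17, edgeR adjusted p = 0.668), 0.73 without vehicle replicate 3 and 0.22 without FSH replicate 4. Fat and muscle also make Angptl4 and Pdk4. Of the adipocyte markers Lep, Adrb3 and Ucp1 were at 0 in all libraries, and the summed level of the 7 markers was 2.36 to 5.09 CPM with vehicle and 1.17 to 5.52 CPM with FSH. The muscle marker Ckm was at 0, and the 4 muscle markers in the table summed to 0.213 to 0.434 CPM with vehicle and 0.259 to 0.556 CPM with FSH.

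Vnn1 (ENSRNOG00000016219) encodes pantetheinase, an enzyme that splits pantetheine into pantothenate and cysteamine. It was at 3.93, 4.14, 7.00, 4.14 and 7.44 CPM in vehicle replicates 1 to 5 and at 15.2, 6.17, 8.41 and 5.53 CPM in FSH replicates 1 to 4. FSH replicates 1 and 3 lay above the vehicle range, and replicates 2 and 4 within it. The log2 fold change of 0.73 (SE 0.32, 95% interval 0.03 to 1.44, edgeR adjusted p = 0.416) became 0.33 without FSH replicate 1.

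Apoa4 (ENSRNOG00000055909), an apolipoprotein of gut and liver and a target of CREB3L3, did not differ in a fixed direction. Vehicle replicates 1 to 5 were at 717, 667, 449, 576 and 1228 CPM, and FSH replicates 1 to 4 at 1489, 651, 342 and 587 CPM. FSH replicate 1 was the highest of the 9 libraries and FSH replicate 3 the lowest. The log2 fold change was 0.08 (SE 0.40, 95% interval −0.81 to 0.96, edgeR adjusted p = 0.962), and it reversed to −0.46 without FSH replicate 1, to −0.05 without vehicle replicate 3 and to −0.23 in limma-voom with sample weights. Of the enterocyte markers Alpi and Lct were at 0, and the 7 in the table summed to 4.06 to 7.18 CPM with vehicle and 3.63 to 6.55 CPM with FSH.

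**Figure D2:**
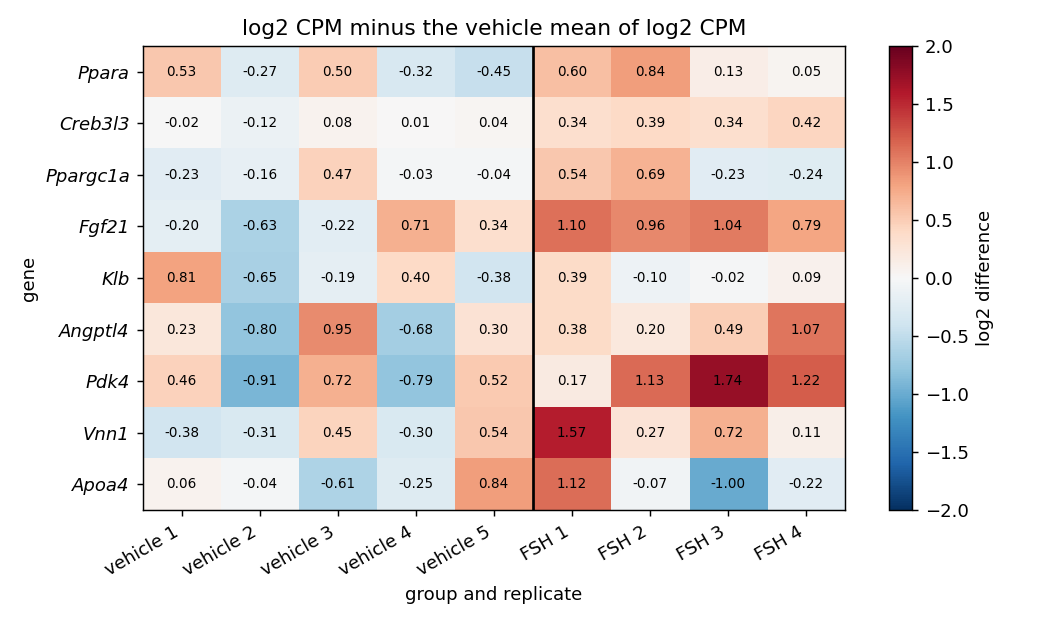
Each cell gives log2 CPM of a gene (rows) in a library (columns) minus the mean log2 CPM of the vehicle libraries, with red above and blue below that mean. Creb3l3 and Fgf21 are above the mean in all 4 FSH libraries by 0.34 to 0.42 and by 0.79 to 1.10, while FSH replicate 1 is highest for Vnn1 (1.57) and Apoa4 (1.12) and has the lowest FSH value for Pdk4 (0.17).

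The members did not order the animals in the same way. Vehicle replicate 2 had the lowest value of all 9 libraries for 5 of the 9 genes and was among the 3 lowest for 7 of 9. FSH replicate 1 had the highest value for 3 genes (Fgf21, Vnn1 and Apoa4), FSH replicate 2 for Ppara and Ppargc1a, FSH replicate 4 for Creb3l3 and Angptl4, FSH replicate 3 for Pdk4 and vehicle replicate 1 for Klb. Deviations of log2 CPM from the group means were compared for the 36 pairs of members over the 9 libraries, with an exact two-sided permutation test within groups. In all, 25 of 36 pairs had a Pearson r above 0, with a median of 0.13. None passed after Benjamini-Hochberg adjustment over the pairs, and 1 had an unadjusted p under 0.05 by Pearson's r.

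That pair was Creb3l3 and Angptl4, with r = 0.75 (exact permutation p = 0.0469, adjusted p = 0.956) and Spearman's rho = 0.75 (exact permutation p = 0.0403, adjusted p = 0.725). With CPM from total counts alone r was 0.22 (exact permutation p = 0.534, adjusted p = 0.949). Without vehicle replicates 2 and 3, whose Creb3l3 deviations lay farthest from the median, r was 0.37. Without FSH replicates 2 and 4, the farthest by level of Creb3l3, it was 0.78. The relation thus varied with the libraries left out and with the scaling. For Angptl4 and Pdk4, r was 0.77 (exact permutation p = 0.0563, adjusted p = 0.956) and rho 0.80 (exact permutation p = 0.0306, adjusted p = 0.725). Without vehicle replicates 2 and 3, the farthest by deviation of Angptl4, r was 0.63, and without vehicle replicates 2 and 4, the farthest by level, it was 0.28. From total counts alone, r was 0.76 for this pair (exact permutation p = 0.0424, adjusted p = 0.949). For Ppara with Ppargc1a that scaling gave 0.59 (exact permutation p = 0.111, adjusted p = 0.949). For Ppara and Ppargc1a, r was 0.63 (exact permutation p = 0.105, adjusted p = 0.956), rho was 0.40 (exact permutation p = 0.251, adjusted p = 1), and r was 0.94 without vehicle replicates 1 and 3, the farthest by deviation of Ppara, and 0.56 without vehicle replicate 5 and FSH replicate 2, the farthest by level.

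Among 10283 other genes with a mean of at least 1 CPM, the deviations from the group means most like those of Ppara over the 9 libraries were those of Rbm47, an RNA-binding protein (r = 0.97), C1d (r = 0.96) and Ocln, the tight junction protein occludin (r = 0.95). For Creb3l3 they were those of Gmeb1 (r = 0.97), Dusp19 (r = 0.97) and Sec11c, a signal peptidase subunit (r = 0.96). These are the highest values of a long ranking over few libraries. Log2 fold changes of these genes with FSH were 0.09 (Rbm47), −0.12 (C1d), −0.01 (Ocln), 0.25 (Gmeb1), 0.06 (Dusp19) and −0.15 (Sec11c), and none passed the threshold. The directions of Ocln and Dusp19 turned when single libraries were left out.

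**Figure D3:**
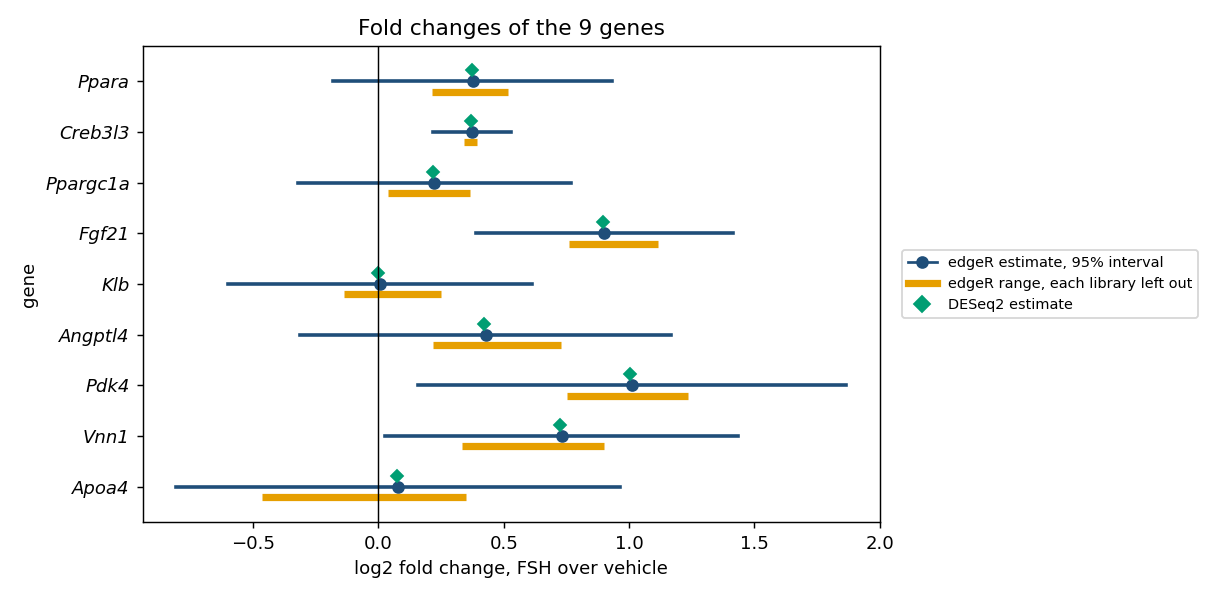
Log2 fold change, FSH over vehicle, for each of the 9 genes: edgeR estimate with its 95% interval, the range of edgeR estimates when each library is left out, and the DESeq2 estimate. The intervals of Creb3l3, Fgf21, Pdk4 and Vnn1 lie above 0, and the ranges of Klb and Apoa4 span 0.

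The wider pathway was described with lists of genes that act beside the members. The lists too were chosen with earlier results of these data known, so their counts are a description and no test. Of 25 tested classical PPARα target genes, 19 had a log2 fold change above 0 (median 0.21, against 0.002 over all tested genes), and 10 were higher and 1 lower at an unadjusted p under 0.05, where 6.42% and 5.14% of all tested genes were. Cpt1a alone passed the threshold. It encodes the gatekeeper of long-chain fatty acid entry into mitochondria. Cpt1a stood at 375, 219, 399, 344 and 348 CPM in vehicle replicates 1 to 5 and at 882, 669, 882 and 901 CPM in FSH replicates 1 to 4 (log2 fold change 1.31, SE 0.17, edgeR adjusted p = 0.0337). Its call was lost in 7 of 9 fits that left out 1 library, with values from 1.18 to 1.39 and adjusted p up to 0.158: those without vehicle replicate 1, 3, 4 or 5 or without FSH replicate 1, 3 or 4. In the ketone list 6 of 7 genes were above 0 (median 0.07), and 0 passed in edgeR. At an unadjusted p under 0.05, 1 was higher, beside 6.42% of all tested genes. Slc16a1, a transporter of lactate and ketones, was at 0.19 (SE 0.13, edgeR adjusted p = 0.619), or 0.07 when FSH replicate 2 was left out.

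Partners of PPARα gave small values. Of 18 partners and cofactors, 15 had a log2 fold change above 0 (median 0.11), and 0 passed in edgeR, with 3 higher and 0 lower at an unadjusted p under 0.05, beside the same shares of all tested genes. The forkhead factor Foxo1 had 0.33 (SE 0.11, edgeR adjusted p = 0.321), at 17.1 to 18.7 CPM with FSH and 11.4 to 16.4 CPM with vehicle, without overlap. The coactivator Ncoa2 had 0.33 (SE 0.13, edgeR adjusted p = 0.364), and Rxra, the retinoid X receptor that pairs with PPARα, 0.18 (SE 0.09, edgeR adjusted p = 0.445). Of 7 tested genes listed for PGC-1α and glucose metabolism, 5 were below 0 (median −0.06), and 0 passed in edgeR. At an unadjusted p under 0.05, 0 were higher and 1 lower, beside 6.42% and 5.14% of all tested genes. The listed names G6pc, G6pc1 and Pcx matched no row of the counts. G6pc and G6pc1 name the same gene, and Pcx is another name of Pc, which was among those tested. Tat, the tyrosine aminotransferase, was at 628 to 1296 CPM with FSH and 1304 to 3116 CPM with vehicle (−0.88, SE 0.31, edgeR adjusted p = 0.340), and its value was −0.58 without vehicle replicate 2. Ppp1r3c, a glycogen-targeting subunit, had −0.43 (SE 0.30, edgeR adjusted p = 0.629) and −0.21 when FSH replicate 3 was left out.

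Around Creb3l3, a list held genes of its processing, the CREB3 family and related stress and cyclic AMP factors. Of 13 tested, 7 were above 0 (median 0.05), and 0 passed in edgeR. At an unadjusted p under 0.05, 1 was higher and 0 lower, beside 6.42% and 5.14% of all tested genes. Xbp1, a transcription factor of the unfolded protein response, was at 142 to 257 CPM with FSH and 74.5 to 146 CPM with vehicle (0.83, SE 0.23, edgeR adjusted p = 0.243). DESeq2 called it (adjusted p = 0.0336). Crem, a cyclic AMP response factor, had 0.34 (SE 0.17, edgeR adjusted p = 0.496). Of 13 CREB3L3 target genes, 8 were above 0 (median 0.15), and 0 passed in edgeR, with 3 higher and 1 lower at an unadjusted p under 0.05, beside 6.42% and 5.14% of all tested genes. Apoa5, an apolipoprotein that aids triglyceride clearance, was at 1585 to 2146 CPM with FSH and 1093 to 1472 CPM with vehicle, without overlap (log2 fold change 0.54, SE 0.13, edgeR adjusted p = 0.204, DESeq2 adjusted p = 0.00607). Crp, an acute phase protein, had 0.29 (SE 0.12, edgeR adjusted p = 0.399).

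The lists around the remaining members had medians between −0.11 and 0.002. In pyruvate dehydrogenase control 7 of 13 genes were above 0 (median 0.002), and 0 passed in edgeR. At an unadjusted p under 0.05, 1 was higher and 2 lower, beside 6.42% and 5.14% of all tested genes. Dlat, the acetyltransferase core of the complex that PDK4 switches off, was lower in all FSH libraries, at 20.7, 19.4, 18.5 and 19.2 CPM in FSH replicates 1 to 4 against 47.1, 42.7, 26.3, 24.2 and 33.3 CPM in vehicle replicates 1 to 5. This amounted to −0.83 on the log2 scale (SE 0.19, edgeR adjusted p = 0.202, DESeq2 adjusted p = 0.00568). Pdhx, another subunit of the complex, had −0.27 (SE 0.09, edgeR adjusted p = 0.319), also without overlap between the groups. The other kinases had −0.05 (Pdk2, SE 0.09, edgeR adjusted p = 0.869), 0.002 (Pdk1, SE 0.15, edgeR adjusted p = 0.998) and 0.05 (Pdk3, SE 0.21, edgeR adjusted p = 0.953). The signs of Pdk1 and Pdk3 turned with single libraries, and that of Pdk1 also with other scaling. Among FGF receptors and signalling genes 4 of 9 were above 0 (median −0.02), and 0 passed in edgeR. Of these genes, 1 was higher at an unadjusted p under 0.05, beside 6.42% of all tested genes. The adaptor Frs2 had 0.20 (SE 0.07, edgeR adjusted p = 0.362) and the phosphatase Dusp6 0.70 (SE 0.36, edgeR adjusted p = 0.498).

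For control of lipoprotein lipase, the field of Angptl4, 3 of 10 genes were above 0 (median −0.11), and 0 passed in edgeR. At an unadjusted p under 0.05, 1 was higher, beside 6.42% of all tested genes. Angptl8, a family member induced by feeding, had −0.62 (SE 0.29, edgeR adjusted p = 0.458), at 35.7 to 73.1 CPM with FSH and 53.6 to 132 CPM with vehicle. For pantetheine and coenzyme A, the field of Vnn1, 4 of 9 genes were above 0 (median −0.004), and 0 passed in edgeR. Of these genes, 2 were higher at an unadjusted p under 0.05, beside 6.42% of all tested genes. Pank1, a pantothenate kinase that starts coenzyme A synthesis, was at 280.2 to 312 CPM with FSH and 197 to 255 CPM with vehicle, without overlap (0.39, SE 0.10, edgeR adjusted p = 0.204, DESeq2 adjusted p = 0.0182). Nudt7, a peroxisomal hydrolase of coenzyme A, had 0.39 (SE 0.10, edgeR adjusted p = 0.219), at 20.2 to 25.8 CPM and 15.6 to 19.4 CPM, also without overlap.

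**Figure D4:**
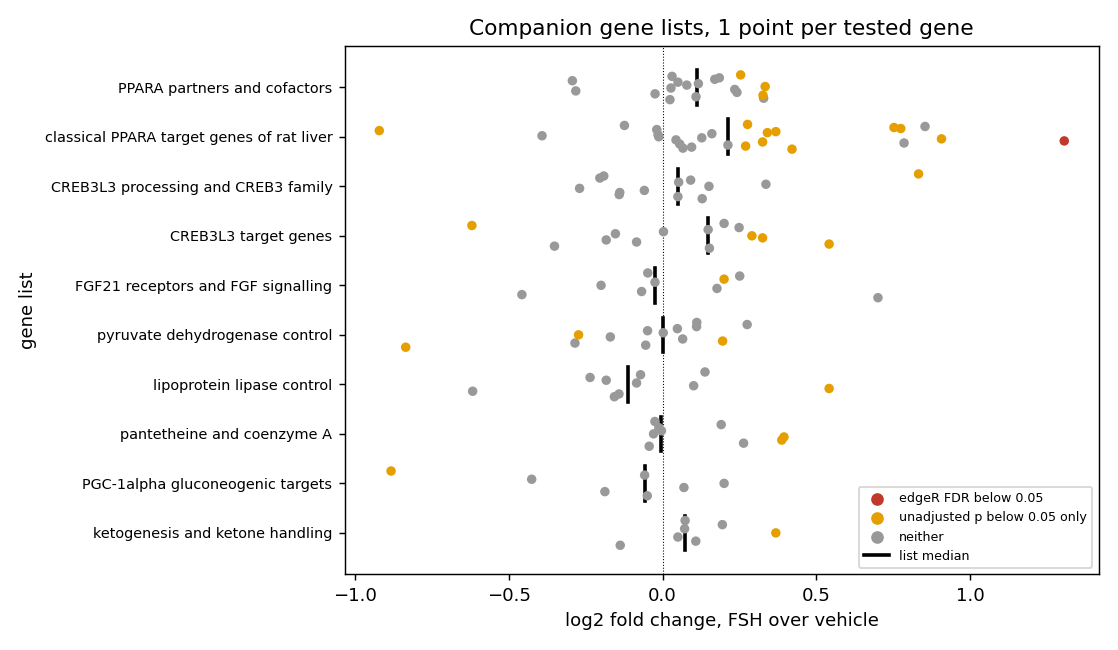
Log2 fold change, FSH over vehicle (horizontal axis), of each tested gene in 10 lists of genes that act beside the 9 members, with the list median as a black bar. Cpt1a, at 1.31, is the single gene with an edgeR adjusted p under 0.05, and list medians lie between −0.11 and 0.21.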

How the data were processed

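Gene counts from 9 liver libraries were used as deposited by the authors: whole-number counts per gene, not normalised. Per the submitters' processing notes, the build was rn6 and the tools named were STAR, edgeR and DESeq2. The annotation, the counting tool and its strand setting are not stated in those notes, and 8868 genes were listed at 0 throughout. Columns were matched to animals by label. In R 4.3.3, edgeR 4.0.16 (quasi-likelihood F-test, two-sided, TMM scaling, filterByExpr, Benjamini-Hochberg over 11924 genes) compared FSH with vehicle at an adjusted p of 0.05. SEs came from the fold change and F statistic. Alternatives used DESeq2 1.42.0, limma 3.58.1 (voom), other scaling and filters, a replicate block and leaving out each library. Leaving out the 2 libraries farthest by deviation was added after seeing the data.

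The members and gene lists were chosen with earlier results of these data known. Named genes are the members, Cpt1a, up to 4 passing genes per list (else the 2 smallest p) and the 3 genes most like Ppara and Creb3l3, of which a few are not reported here. Rxra, Pdk1 to Pdk3 and the FGF receptors were added after their values were seen, as were the promoter motifs. For likeness, 0.5 CPM was added before taking logs. Promoters are from RefSeq (GRCr8). On simulated counts for this comparison (11924 genes), 26.9%, 68.7% and 95.5% of genes changed by 0.5, 1 and 2 (log2) were called, and 3 of 11724 unchanged genes. These counts were drawn from edgeR's own model and fitted spread, and the changed genes were picked at random. The rates need not hold for single members. Same-group libraries differed beyond counting noise (chi-square per degree of freedom at least 27.1).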

Additional observations from a re-analysis of the deposited data

Results flagged for a closer look

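The extreme animal of a group was set against its groupmates for 84 sets of CPM values, and it stood apart in 4, where chance gives about 4.2. Ppargc1a was at 2.12 CPM in vehicle replicate 3, with the next vehicle library at 1.50 CPM. Rxra was highest in the same animal, at 327 CPM, with the next at 302 CPM. Cpt1a was lowest among FSH libraries in replicate 2, at 669 CPM, with the next at 882 CPM. Tat was at 3116 CPM in vehicle replicate 2, with the next at 1628 CPM.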

How the results depend on the processing

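All members except Klb and Apoa4 stayed above 0 in every fit run, and 0 of 9 members passed in each edgeR fit and in limma-voom. DESeq2 called 2 of 9 members, 12 genes of the companion lists and 184 genes in all, against 0, 1 and 4 in edgeR, and an adjusted p of 0.10 in edgeR gave 12 genes. Leaving out 1 library gave 0 to 4 genes in all, 0 to 1 genes of the companion lists, 2 to 3 members without overlap (3 without FSH replicate 1, when Pdk4 joins), medians of the members from 0.29 to 0.52, and 7 to 9 members above 0 (8 in DESeq2, limma-voom and the replicate block). The share of all tested genes without overlap was not counted in these fits, which hold fewer libraries. Cpt1a lost its edgeR call in 7 of these 9 fits. The replicate numbers do not pair the animals: deviations of same-numbered libraries correlated at −0.0515 to 0.043, and 0 of 4 FSH libraries correlated best with their own number. With a replicate block 0 members passed, and Klb was at −0.017. Other signs turned only for values near 0 or for Apoa4, and the cause was not tested. Klb was −0.00018 in DESeq2 and −0.14 to 0.25 on leaving out 1 library. Apoa4 was −0.23 in limma-voom and −0.46 to 0.35 on leaving out 1 library. Pdk1 was −0.0032 in DESeq2, −0.0044 in limma-voom, −0.0028 with size factors of DESeq2's kind, −0.0045 with at least 1 CPM in 4 libraries, and −0.080 to 0.13 on leaving out 1 library. Ocln was 0.045 in limma-voom. On leaving out 1 library, Ocln ranged from −0.090 to 0.091, Dusp19 from −0.057 to 0.14, Pdk3 from −0.073 to 0.14, Fgfr1 from −0.17 to 0.039 and Fgfr4 from −0.066 to 0.023. At 25 to 61 reads per library, depth limits Ppargc1a more than the other 8 members.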
